A study of Arabidopsis thaliana with 15 samples.

Results

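The 39 genes described here encode proteins of the small, 40S subunit of the cytosolic ribosome of Arabidopsis, in 14 families: SA, S2, S3, S4, S5, S6, S8, S9, S14, S15A, S18, S27, S28 and S29. They were taken as a fixed list of locus identifiers, 39 of the 33323 genes listed in each of 15 libraries. RefSeq describes each as a ribosomal protein, often under the name of a wider family (the S2 genes as an S5 family), except AT3G10090 and AT5G03850 of S28, which it describes by their nucleic-acid-binding fold. The seedlings were wild type, strain Col-0, stratified for 4 days and then kept in the dark for 4 days at 22 °C (group Dark). Some were then lit for 4 h with white light of 100 µmol m-2 s-1 (L4h), and others stayed in the dark for the same 4 h (D4h). RNA came from the aerial part, as total RNA in all 3 conditions and as RNA bound to polysomes in Dark and L4h, which makes 5 groups of 3 libraries. There is no polysome group for D4h, and the labels number 3 replicates where the series text speaks of 2.

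Ribosomal protein mRNAs are among the most abundant messages of growing plant cells, and each protein of the Arabidopsis ribosome is encoded by a small family of closely related genes. The 40S subunit binds the mRNA, decodes it and scans for the start codon. An mRNA on polysomes carries several ribosomes, so the ratio of polysome-bound to total RNA is a common readout of how actively a message is translated. In etiolated seedlings the cotyledons are closed and the hypocotyl elongates, and light sets off greening and a general rise in protein synthesis.

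The libraries held 60.8 to 100.9 M listed reads. The 39 genes took 0.236% to 0.301% of the reads in 8 of the 9 total RNA libraries and 0.482% in the library labelled D4h replicate 1. They took 0.443% to 0.829% in the 6 polysome libraries. RPKM, reads per kilobase of gene scaled to the library's reads, is the unit of level throughout. Some libraries stood apart. The summed level of 4 greening markers (LHCB1.3, LHCB2.1, RBCS1A and RCA) was 13065 RPKM in D4h replicate 1, against 1610 and 1462 RPKM in D4h replicates 2 and 3, 676 to 1718 RPKM in Dark and 7435 to 13368 RPKM in L4h. In D4h replicate 1, LHCB1.3 (8040 RPKM) and RBCS1A (4100 RPKM) were at or above their L4h levels. LHCB2.1 (222 RPKM) and RCA (696 RPKM) lay between Dark (at most 64.4 and 134 RPKM) and L4h (at least 719 and 1560 RPKM). That library goes against its label on these genes. For the 39 genes, median changes with D4h are given with and without it. Other results with D4h include it unless stated. The same sum was 7121 RPKM in Dark polysome replicate 1 and 1281 and 1271 RPKM in replicates 2 and 3. In L4h polysome replicate 1 it was 33148 RPKM, against 10984 and 9167 RPKM in replicates 2 and 3. The 39 genes took 0.829% of the reads in L4h polysome replicate 1 and 0.443% and 0.461% in replicates 2 and 3. D4h replicates 2 and 3 were unusually alike, with a median absolute log2 difference of 0.0646 between them against 0.1387 to 0.6036 for other pairs of replicates, yet they differed by more than sampling noise. Of 6 root marker genes, 2 passed the filter on low counts in total RNA, and the level of CASP1 ranged from 105 to 482 RPKM over the 15 libraries, while the other 5 were at or below 0.513 RPKM in every library. The summed level of 4 seed reserve genes ranged from 0.91 to 154 RPKM. Labels do not say that replicates came from separate cultures, so p-values measure the spread between these libraries. In seedling RNA, fewer cells of a type and less RNA per cell cannot be told apart.

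**Figure D1:**
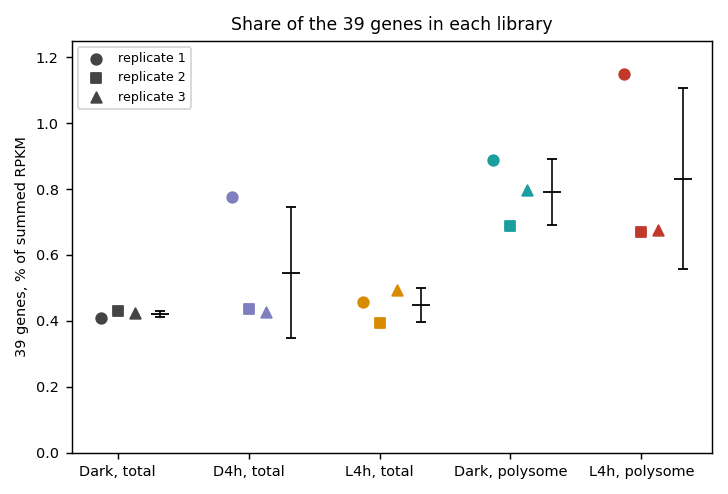
Each symbol is 1 library and gives the summed RPKM of the 39 genes as a percentage of the summed RPKM of all genes, by group, with the mean and SD of the 3 libraries beside them. Dark total RNA libraries sit at 0.409% to 0.429%, D4h replicate 1 at 0.777%, and L4h polysome replicate 1 is highest at 1.148%.

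Most of the genes tested were higher in polysome-bound than in total RNA in both conditions. In Dark, 24 of the 38 genes tested were higher in polysome-bound than in total RNA and 0 were lower (edgeR, adjusted p under 0.05), where 10.6% of all 21924 genes tested were called higher and 9.34% lower. The median log2 change was 1.3, against 0.00 over all genes, and all 38 values were above 0, from 0.53 to 2.96. In L4h, 29 of 38 were higher and 0 lower, with a background of 11.7% and 9.15%, a median of 1.51 and a range of 0.74 to 2.92. These changes are relative to all genes of the same libraries. All 3 polysome libraries lay above all 3 total RNA libraries in RPKM for 35 of 38 genes in Dark and for 31 of 38 in L4h, where 13.7% and 12.7% of all genes did so. With replicate number as a block the calls were 34 in Dark and 36 in L4h, where 16.7% and 17.6% of all genes were called higher. Leaving out 1 library gave 11 to 28 calls in Dark and 11 to 34 in L4h. In these fits 5.64% to 10.7% of all genes were called higher in Dark and 6.36% to 10.3% in L4h. Of the members, 10 of the 24 and 11 of the 29 calls held whichever library was left out. The same count was not made over all genes, so these have no background. The counts fell to 11 without any 1 of the Dark total RNA libraries, to 14 and 15 without Dark polysome replicate 1 or 3, to 17, 11 and 16 without L4h total RNA replicates 1, 2 and 3, and to 15 without L4h polysome replicate 1.

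The S29 family had the largest median polysome change, 2.35 in Dark and 2.67 in L4h. For S29, the zinc-binding protein of the subunit head, the transcript of AT4G33865 had total RNA levels of 47.9, 54.4 and 37 RPKM in Dark, 122, 43 and 48.9 in L4h and 228, 35.3 and 49.7 in D4h. On polysomes it measured 562, 150 and 160 RPKM in Dark and 788, 189 and 234 in L4h. Polysome libraries were all above the total RNA libraries of the same condition, and replicate 1 was the highest of its group on polysomes, in L4h and in D4h. Its log2 change between polysome-bound and total RNA was 2.96 ± 0.79 (SE, adjusted p = 0.023) in Dark, the largest of the 38, and 2.92 ± 0.79 (SE, adjusted p = 0.023) in L4h. The Dark call was lost without Dark polysome replicate 1 (1.96, adjusted p = 0.091), and without any of the Dark total RNA libraries (adjusted p = 0.07 to 0.081). The L4h call was lost without L4h polysome replicate 1 (1.69, adjusted p = 0.11) and without L4h total RNA replicate 2 or 3 (adjusted p = 0.089 and 0.088). With all libraries numbered 1 left out the Dark change was 2.01 (adjusted p = 0.0096), below AT5G64140 at 2.12. The paralog AT3G43980 was lowest of the family, with total RNA levels of 16.6, 14.5 and 11.1 RPKM in Dark, 21.1, 13.5 and 13.5 in L4h and 38.2, 11.5 and 13.9 in D4h. Its polysome libraries read 91.3, 38.9 and 45.8 RPKM in Dark and 127, 45 and 59.5 in L4h, with no overlap with total RNA, and it changed by 2.35 ± 0.53 in Dark (adjusted p = 0.012). The third gene, AT3G44010, was between 61.4 and 434 RPKM and changed by 1.90 ± 0.37 in Dark and 2.43 ± 0.37 in L4h (adjusted p = 0.0066 and 0.0026). AT3G43980 and AT3G44010 share 94.2% of their coding bases, and 2.5% and 1.7% of their 50-base words occur in the other, so the counting could move a few reads between them.

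S28 is a small protein beside the path by which mRNA leaves the subunit, and its family median was 1.97 in Dark. AT5G03850 was the most abundant, with total RNA levels of 63.9, 71.2 and 68.7 RPKM in Dark, 107, 69.1 and 88.8 in L4h and 170, 62 and 68.7 in D4h. Its polysome levels were 277, 154 and 222 RPKM in Dark and 429, 175 and 225 in L4h, all above total RNA. AT3G10090 was the least abundant, with total RNA levels of 11.6, 10.6 and 10.5 RPKM in Dark, 20.3, 9.27 and 9.36 in L4h and 33.4, 8.27 and 9.11 in D4h and polysome levels of 49.1, 25.8 and 24.3 RPKM in Dark and 67.2, 27.8 and 30.5 in L4h. Here too polysome and total RNA did not overlap, and replicate 1 was high in L4h and D4h. AT5G64140 had total RNA levels of 39.2, 49.9 and 55.9 RPKM in Dark, 59.2, 48.8 and 62.6 in L4h and 117, 52.6 and 52 in D4h and polysome levels of 344, 161 and 222 RPKM in Dark and 465, 170 and 207 in L4h. That gave the second largest change in Dark, 2.63 ± 0.49 (SE, adjusted p = 0.006), and 2.71 ± 0.50 (SE, adjusted p = 0.0046) in L4h. The other genes changed by 1.97 ± 0.44 (AT5G03850) and 1.88 ± 0.52 (AT3G10090) in Dark, with adjusted p of 0.011 and 0.027. AT5G64140 overlaps AT5G64150 on the same strand, so some of its reads may belong to that neighbour.

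S27, with a family median of 2.0 in Dark, is a zinc-finger protein of the 40S platform, and mutants of Arabidopsis RS27A (AT3G61110) are known for their sensitivity to agents that damage nucleic acids. AT3G61110 was highest in the family and second of all 39 genes by mean level, with total RNA levels of 78, 122 and 132 RPKM in Dark, 99.2, 138 and 162 in L4h and 200, 124 and 124 in D4h. On polysomes it reached 404, 257 and 297 RPKM in Dark and 541, 309 and 289 in L4h. The lowest, AT2G45710, had total RNA levels of 8.62, 10.0 and 11.3 RPKM in Dark, 14, 12 and 14.6 in L4h and 25.4, 9.82 and 9.81 in D4h and polysome levels of 69.6, 28.8 and 31.1 RPKM in Dark and 88.5, 35.2 and 39.1 in L4h. In both genes every polysome library exceeded every total RNA library of its condition. AT2G45710 changed by 2.41 ± 0.51 (SE, adjusted p = 0.009) in Dark, the third largest of the 38. AT3G61110 changed by 1.82 ± 0.39 (SE, adjusted p = 0.01), and AT5G47930, between 68.4 and 514 RPKM, by 2.00 ± 0.40 (SE, adjusted p = 0.0077).

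S14 lies on the platform near the mRNA exit and, in yeast, takes part in the last cytoplasmic steps of 40S maturation. AT3G11510 was highest, with total RNA levels of 82.6, 102 and 113 RPKM in Dark, 114, 106 and 149 in L4h and 222, 106 and 103 in D4h and polysome levels of 266, 277 and 309 RPKM in Dark and 442, 283 and 265 in L4h. AT3G52580 was lowest, with total RNA levels of 21.2, 20.1 and 20.4 RPKM in Dark, 25.2, 19.8 and 24.5 in L4h and 46.3, 19 and 18.2 in D4h and polysome levels of 98.5, 62.5 and 68.2 RPKM in Dark and 126, 58.6 and 62 in L4h. The groups did not overlap for either gene. AT3G52580 had the larger change, 2.17 ± 0.40 (SE, adjusted p = 0.0055) in Dark and 2.21 ± 0.40 (SE, adjusted p = 0.0044) in L4h, against 1.79 ± 0.31 and 1.78 ± 0.31 for AT3G11510 (adjusted p = 0.0048 and 0.0041). AT2G36160 ranged from 47.6 to 246 RPKM and changed by 1.39 ± 0.42 and 1.81 ± 0.43 (adjusted p = 0.039 and 0.013).

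S18 contacts the large subunit from the head, and loss of the gene AT1G22780 (PFL) gives Arabidopsis its pointed first leaves. AT4G09800 was the most abundant S18 gene, with total RNA levels of 152, 101 and 94.7 RPKM in Dark, 124, 91.5 and 98.8 in L4h and 137, 103 and 103 in D4h and polysome levels of 242, 149 and 147 RPKM in Dark and 276, 151 and 129 in L4h. Its Dark polysome and total RNA libraries overlapped, and the Dark change of 0.90 ± 0.41 (SE, adjusted p = 0.15) was not called. AT1G22780 was the least abundant, with total RNA levels of 45.4, 51.2 and 51.9 RPKM in Dark, 57.3, 45.6 and 68.2 in L4h and 118, 51.7 and 49.4 in D4h. Its polysome libraries held 156, 105 and 118 RPKM in Dark and 226, 101 and 110 in L4h, without overlap with total RNA, and changed by 1.63 ± 0.40 (SE, adjusted p = 0.017) in Dark. AT1G34030 ranged from 55.5 to 206 RPKM and was called in both conditions, at 1.27 ± 0.34 and 1.49 ± 0.34 (adjusted p = 0.025 and 0.012).

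S15A binds the central part of 18S rRNA in the body of the subunit. Of its 4 genes, AT1G07770 was highest, with total RNA levels of 119, 125 and 110 RPKM in Dark, 105, 75.3 and 90.7 in L4h and 237, 119 and 121 in D4h and polysome levels of 197, 164 and 178 RPKM in Dark and 308, 164 and 135 in L4h. Polysome values lay above total RNA values in both conditions. The change was 0.87 ± 0.37 (SE, adjusted p = 0.12) in Dark and 1.54 ± 0.37 (SE, adjusted p = 0.015) in L4h. AT2G39590 was listed at 0 in every library except L4h total RNA replicate 1, where 1 read gave 0.0238 RPKM, and it was not tested. Its coding sequence is 77.1% to 79.1% identical to those of the other S15A genes. AT5G59850 and AT3G46040 changed in Dark by 1.60 ± 0.35 and 1.08 ± 0.42 (adjusted p = 0.011 and 0.09) and in L4h by 1.58 ± 0.35 and 1.54 ± 0.42 (adjusted p = 0.01 and 0.025).

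S6 is the protein of the 40S subunit that S6 kinase phosphorylates downstream of the TOR kinase. AT4G31700 had total RNA levels of 74.1, 115 and 131 RPKM in Dark, 109, 114 and 177 in L4h and 228, 112 and 120 in D4h and polysome levels of 350, 235 and 308 RPKM in Dark and 493, 225 and 251 in L4h. AT5G10360 had total RNA levels of 105, 105 and 105 RPKM in Dark, 108, 96.3 and 123 in L4h and 185, 110 and 111 in D4h and polysome levels of 221, 173 and 209 RPKM in Dark and 253, 149 and 162 in L4h. Polysome and total RNA did not overlap for either gene. Both were called in both conditions, AT4G31700 at 1.77 ± 0.44 and 1.67 ± 0.43 (adjusted p = 0.017 and 0.02) and AT5G10360 at 1.21 ± 0.32 and 1.15 ± 0.32 (adjusted p = 0.022 and 0.026). AT4G31700 took 49.7% ± 7.3 (SD, n = 3) of the S6 level in Dark total RNA and 41.4% to 66.1% over the 15 libraries.

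S8, which binds 18S rRNA in the subunit body, was carried almost wholly by 1 gene. AT5G20290 was the most abundant of the 39 genes, with total RNA levels of 194, 235 and 244 RPKM in Dark, 227, 215 and 262 in L4h and 462, 239 and 230 in D4h and polysome levels of 575, 526 and 677 RPKM in Dark and 730, 479 and 514 in L4h. Its paralog AT5G59240 had total RNA levels of 0.836, 0.673 and 1.03 RPKM in Dark, 0.617, 0.538 and 0.724 in L4h and 1.75, 0.558 and 0.388 in D4h and polysome levels of 0.401, 1.98 and 2.17 RPKM in Dark and 1.31, 1.66 and 1.62 in L4h. AT5G20290 made up 99.6% to 99.9% of the family's level in each library, with a coding identity of 74.7% to its paralog. It changed by 1.68 ± 0.31 (SE, adjusted p = 0.0056) in Dark and 1.65 ± 0.31 (SE, adjusted p = 0.0051) in L4h, with no overlap. AT5G59240 rested on 27 to 178 reads per library, its groups overlapped in Dark, and its change there was 1.07 ± 0.50 (SE, adjusted p = 0.15).

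S9 lies at the mRNA entry of the 40S subunit and affects the accuracy of decoding. AT5G15200 (chr5:4934810-4936429) had total RNA levels of 138, 132 and 119 RPKM in Dark, 131, 118 and 162 in L4h and 255, 133 and 142 in D4h and polysome levels of 272, 233 and 273 RPKM in Dark and 351, 204 and 207 in L4h. AT5G39850 (chr5:15949910-15951475) had total RNA levels of 15.9, 10.3 and 9.42 RPKM in Dark, 12.6, 10.2 and 6.07 in L4h and 8.58, 9.1 and 9.53 in D4h and polysome levels of 9.94, 15.9 and 17.9 RPKM in Dark and 10.9, 15.7 and 19 in L4h. The first gave 93.6% of the family's level on average. It was higher on polysomes without overlap, by 1.27 ± 0.33 (SE, adjusted p = 0.022) in Dark. AT5G39850 overlapped between polysome and total RNA in both conditions and had the smallest change of the 38 in Dark, 0.53 ± 0.34 (SE, adjusted p = 0.29). In Dark and L4h its replicate 1 was lower on polysomes than in total RNA, and replicates 2 and 3 were higher. The 250 bases before the RefSeq start of each gene (TAIR10.1) are shown here because the S9 genes differ widely in level and in the motifs, typical of ribosomal protein promoters, that these bases hold. Capitals mark a telo-box (AAACCCTA, or TAGGGTTT on the other strand) or a site II element (AGCCCA or GGCCCA, or TGGGCT or TGGGCC). The first window is chr5:4936430-4936679 on the minus strand, the second chr5:15949660-15949909 on the plus strand and the third, of the S27 gene with the third largest polysome change, chr2:18830880-18831129 on the plus strand.
AT5G15200: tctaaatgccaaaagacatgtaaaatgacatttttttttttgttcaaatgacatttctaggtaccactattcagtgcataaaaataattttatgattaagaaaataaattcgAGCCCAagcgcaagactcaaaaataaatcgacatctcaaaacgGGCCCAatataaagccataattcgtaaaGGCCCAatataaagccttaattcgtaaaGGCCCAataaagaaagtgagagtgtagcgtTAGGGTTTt
AT5G39850: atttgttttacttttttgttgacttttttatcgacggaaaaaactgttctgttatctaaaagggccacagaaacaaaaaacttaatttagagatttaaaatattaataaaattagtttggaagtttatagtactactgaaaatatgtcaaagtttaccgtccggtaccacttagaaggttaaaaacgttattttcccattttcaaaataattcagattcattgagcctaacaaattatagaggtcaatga
AT2G45710: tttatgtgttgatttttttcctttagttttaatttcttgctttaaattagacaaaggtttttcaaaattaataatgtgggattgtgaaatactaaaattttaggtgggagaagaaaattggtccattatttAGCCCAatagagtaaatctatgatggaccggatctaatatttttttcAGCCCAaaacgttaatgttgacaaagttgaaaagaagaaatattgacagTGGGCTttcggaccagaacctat

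The first sequence holds 1 telo-box and 4 site II elements. The second holds neither, but AT5G39850 has 2 site II elements when the 50 bases after its start are included, so the difference depends on the window. The third holds 3 site II elements, and AT2G45710 is the least abundant S27 gene. AT3G61110, the most abundant S27 gene, holds neither motif in the 250 bases or in the wider window. Whether the motifs go with level was not tested. Over the wider window, from 250 bases before to 50 after the start, 20 of the 39 genes (51.3%) had a telo-box and 27 (69.2%) a site II element on either strand. Of the windows of 27443 protein-coding genes, 6.2% and 21.7% did. Both motifs were present in 35.9% of the 39 and in 2.2% of all. The other 52 40S genes had them at 44.2% and 73.1%, 92 genes of the cytosolic 60S subunit at 48.9% and 81.5%, and 10 genes of the plastid 30S subunit at 10.0% and 80.0%. A TATA box (TATAAA) stood in 64.1% of the 39 windows and 52.1% of all. A match of letters is a description and not a bound site.

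S5 sits in the head by the exit site, and RPS5A (AT3G11940) is known as a gene of dividing cells whose mutants fail in embryo development. AT3G11940 had total RNA levels of 156, 128 and 122 RPKM in Dark, 140, 115 and 141 in L4h and 228, 131 and 129 in D4h and polysome levels of 316, 222 and 240 RPKM in Dark and 371, 213 and 192 in L4h. RPS5B (AT2G37270) had total RNA levels of 39.9, 52.3 and 59.8 RPKM in Dark, 45.4, 43.6 and 57.9 in L4h and 99.1, 54.3 and 53.2 in D4h and polysome levels of 135, 76.1 and 88.1 RPKM in Dark and 165, 70.9 and 65.1 in L4h. Neither gene's polysome libraries overlapped its total RNA. RPS5A gave 72.3% of the family's level on average and 67.1% to 79.6% in single libraries. RPS5A changed by 1.21 ± 0.36 (SE, adjusted p = 0.037) in Dark and RPS5B by 1.27 ± 0.44 (SE, adjusted p = 0.067).

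SA is the plant counterpart of the yeast protein RPS0, needed to make 40S subunits. AT1G72370 had total RNA levels of 136, 149 and 148 RPKM in Dark, 134, 130 and 162 in L4h and 255, 155 and 149 in D4h and polysome levels of 315, 248 and 331 RPKM in Dark and 336, 197 and 238 in L4h, without overlap between the kinds of RNA. RPSAb (AT3G04770) had total RNA levels of 1.8, 1.95 and 2.11 RPKM in Dark, 3.36, 3.06 and 3.99 in L4h and 2.86, 2.01 and 2.0 in D4h. On polysomes it had 2.31, 3.2 and 2.82 RPKM in Dark and 6.77, 5.64 and 3.97 in L4h. RPSAb held 1.61% of the family's level on average, and its coding identity to AT1G72370 is 70.2%. It was higher on polysomes in all 3 Dark libraries, but in L4h replicate 3 overlapped total RNA. The changes were 1.32 ± 0.32 (SE, adjusted p = 0.016) for AT1G72370 and 0.76 ± 0.28 (SE, adjusted p = 0.078) for RPSAb in Dark, and 0.99 ± 0.28 (SE, adjusted p = 0.028) for RPSAb in L4h. RPSAb overlaps AT3G04780 on the same strand, and 6.2% of its 50-base words occur in that gene.

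S2 and S3 line the mRNA entry channel. In S2, AT2G41840 was highest, with total RNA levels of 164, 168 and 157 RPKM in Dark, 131, 110 and 142 in L4h and 275, 164 and 164 in D4h and polysome levels of 362, 219 and 279 RPKM in Dark and 323, 150 and 179 in L4h. AT3G57490 was lowest, with total RNA levels of 5.02, 7.75 and 8.32 RPKM in Dark, 6.61, 5.8 and 10.1 in L4h and 11.6, 7.18 and 7.34 in D4h and polysome levels of 13.4, 11.9 and 12.5 RPKM in Dark and 17.7, 9.79 and 9.69 in L4h. In L4h the polysome and total RNA of AT3G57490 overlapped. The changes in Dark were 1.10 ± 0.39 (SE, adjusted p = 0.071) and 1.11 ± 0.37 (SE, adjusted p = 0.055), so neither was called. AT1G59359 was the S2 gene called in Dark, at 1.01 ± 0.25 (SE, adjusted p = 0.017), but all its 50-base words occur in other genes, AT1G58684 and AT1G58983 among them. In 14 libraries its reads were split evenly with these copies (2503.7 reads each in Dark total RNA replicate 1), whereas in D4h replicate 2 all 9443 reads were assigned to AT1G59359 and 0 to the others. Its level there was 100 RPKM against 33.8 RPKM in D4h replicate 3, while the 3 copies together had 112 and 113 CPM (counts scaled to the library's reads) in these libraries. AT1G58380, which shares 27.7% of its words with those copies, ranged from 33.1 to 68.7 RPKM.

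In S3, AT3G53870 was highest, with total RNA levels of 83.5, 92.2 and 88.6 RPKM in Dark, 143, 115 and 145 in L4h and 181, 92.3 and 93.4 in D4h and polysome levels of 258, 157 and 202 RPKM in Dark and 395, 197 and 202 in L4h. AT5G35530 was lowest, with total RNA levels of 91.5, 72.5 and 73.4 RPKM in Dark, 91.6, 64.7 and 73.2 in L4h and 126, 74.1 and 70.1 in D4h and polysome levels of 123, 94.2 and 100 RPKM in Dark and 152, 95.6 and 84.1 in L4h. AT3G53870 did not overlap between kinds of RNA, and AT5G35530 did in L4h. The Dark changes were 1.51 ± 0.39 (SE, adjusted p = 0.021) for AT3G53870 and 0.69 ± 0.33 (SE, adjusted p = 0.17) for AT5G35530, the second smallest of the 38. No S3 gene held more than 50% of the family's level on average, and AT3G53870 held 34.3% to 49.9%.

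S4 is a protein of the subunit body, and its genes had similar levels. AT2G17360 was highest, with total RNA levels of 80.6, 83.6 and 79.8 RPKM in Dark, 87.7, 78.7 and 92.5 in L4h and 135, 82.9 and 80.2 in D4h and polysome levels of 141, 109 and 121 RPKM in Dark and 171, 108 and 106 in L4h. AT5G58420 was lowest, with total RNA levels of 61.9, 71.8 and 73.4 RPKM in Dark, 59, 54 and 70.9 in L4h and 124, 72.1 and 69.7 in D4h and polysome levels of 100, 89.7 and 116 RPKM in Dark and 118, 67.9 and 67.3 in L4h. AT5G07090 had total RNA levels of 71.7, 73.9 and 74.4 RPKM in Dark, 96.8, 81.1 and 117 in L4h and 151, 74.1 and 69.6 in D4h and polysome levels of 84.4, 95.7 and 126 RPKM in Dark and 160, 108 and 117 in L4h. Polysome and total RNA overlapped in L4h for AT5G58420 and AT5G07090. The mean shares of the 3 genes were 36.5%, 28.5% and 35.1%. No S4 gene was called in Dark, where the changes were 0.74 to 0.87, and AT2G17360 was called in L4h at 0.94 ± 0.30 (SE, adjusted p = 0.046).

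**Figure D2:**
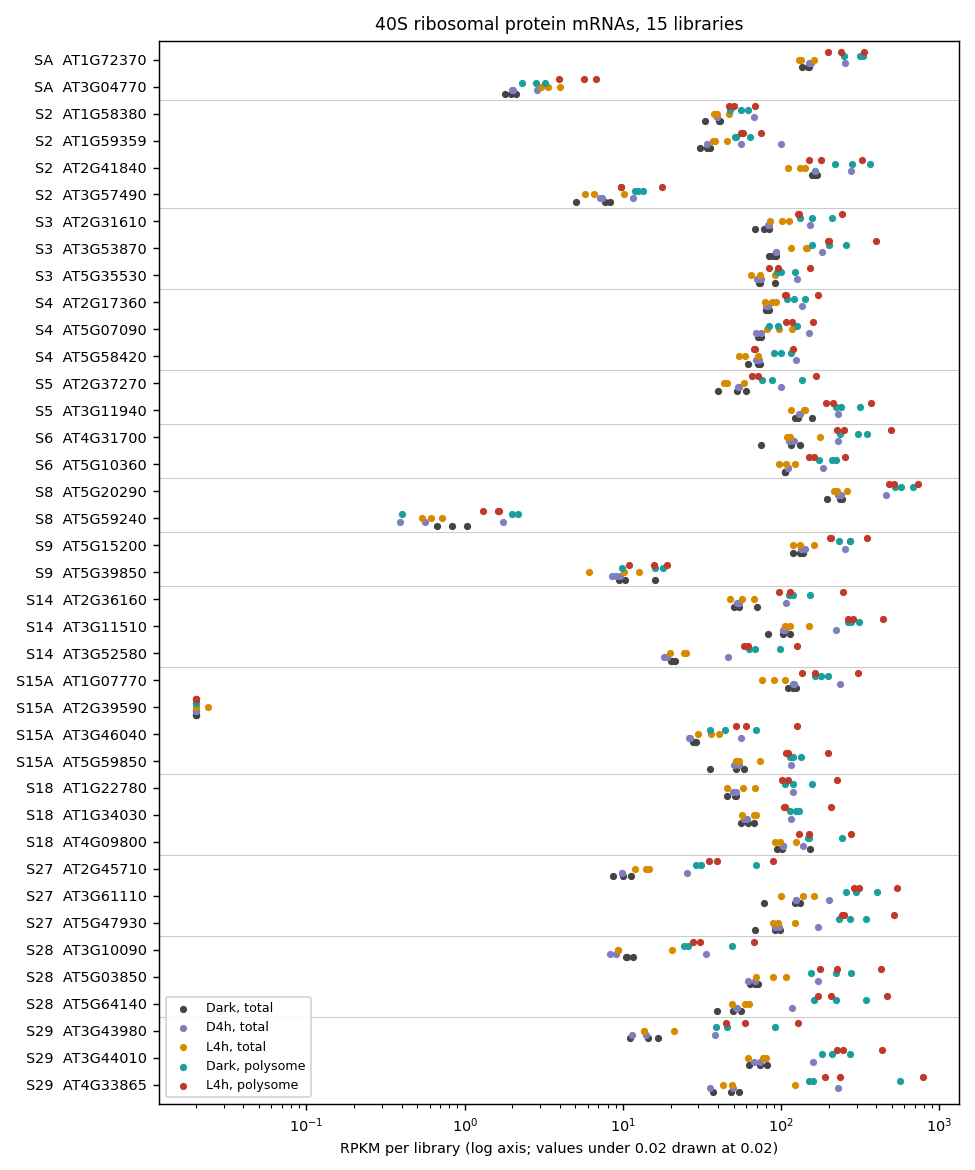
RPKM of each of the 39 genes on a log axis (values under 0.02 drawn at 0.02), grouped by family, with 1 point per library coloured by condition and kind of RNA. In most rows polysome points lie to the right of the total RNA points of the same condition. D4h replicate 1, a total RNA library, falls among the polysome points in many rows. In AT1G72370 it had 255 RPKM, where the L4h polysome libraries had 336, 197 and 238. Minor copies such as AT5G59240 and AT3G04770 lie far to the left of their paralogs.

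Over the listed genes of the 14 families, 10 families had 1 gene that gave more than 50% of the summed RPKM on average. S3, S4, S18 and S29 had none. The strongest were AT5G20290 in S8 (99.7%), AT1G72370 in SA (98.4%) and AT5G15200 in S9 (93.6%). The S2 sum leaves out AT1G58684 and AT1G58983, which had about as many reads as AT1G59359 in 14 libraries. With them counted, AT2G41840 would take less than its 63.9% of the 4 listed S2 genes. The leading gene led in all 15 libraries in 9 families and in 8 libraries in S4. Over the listed genes, the summed level of a family in Dark total RNA ran from 127 ± 11 RPKM (SD, n = 3) for S28 to 244 ± 4.82 RPKM for S3. On polysomes in Dark it ran from 274 ± 21.9 RPKM for S9 to 646 ± 156 RPKM for S27. S2, at 241 ± 9.75 RPKM in Dark total RNA without AT1G58684 and AT1G58983, would be higher with them. Apart from AT2G39590, single genes spanned from 1.08 RPKM (AT5G59240) to 387 RPKM (AT5G20290) on average.

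The polysome change fell with the gene length listed in the files. Over the 38 genes tested, the correlation between the log2 change and length was r = -0.76 and rho = -0.67 in Dark and r = -0.88 and rho = -0.84 in L4h, given as a description because the genes share libraries and families share a length. Over all 21924 genes tested rho was -0.58 and -0.66. By the listed length, the longest of the 39 genes is AT5G15200 at 1.231 kb, so no member lies in the length classes over 1.5 kb. For some genes the longest RefSeq transcript differs from the listed length. It has 1006 bases for AT5G15200 and 1653 for AT1G07770 (listed at 0.728 kb). For AT2G45710 (listed at 0.549 kb) it has 1042, and for AT5G64140 (listed at 0.48 kb) 965. Length classes, RPKM and shares of RPKM here rest on the listed length. The 6 genes listed at under 0.5 kb, all of S28 and S29, had a median of 2.16 in Dark against 0.62 for the 773 genes of that length. Their longest RefSeq transcripts have 538 to 965 bases, so by that length none of them would be in this class. From 0.5 to 0.75 kb, 5 members had 1.82 against 1.16. From 0.75 to 1 kb, 11 had 1.51 against 0.74. From 1 to 1.5 kb, 16 had 1.11 against 0.23, and 7 were called higher where 9.74% of the genes of that length were. Members lay above the median of all genes of their length class in 35 of 38 cases in Dark, by a median of 0.88, and in 38 of 38 in L4h, by 0.82. The exceptions in Dark were AT5G39850 (-0.21), AT1G07770 (-0.29) and AT3G46040 (-0.08), which differed from the class median by the value in brackets. With each library's length trend removed as an offset, the medians were 0.89 and 0.84 and the calls fell from 24 to 5 in Dark and from 29 to 2 in L4h. The share of all genes called higher fell as well, from 10.6% to 4.05% and from 11.7% to 1.81%. The 5 in Dark were AT2G45710, AT3G11510, AT3G52580, AT5G20290 and AT5G64140, and the 2 in L4h were AT3G44010 and AT3G52580. Against the mean RPKM in total RNA, rho of the polysome change was -0.05 in Dark and -0.06 in L4h.

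**Figure D3:**
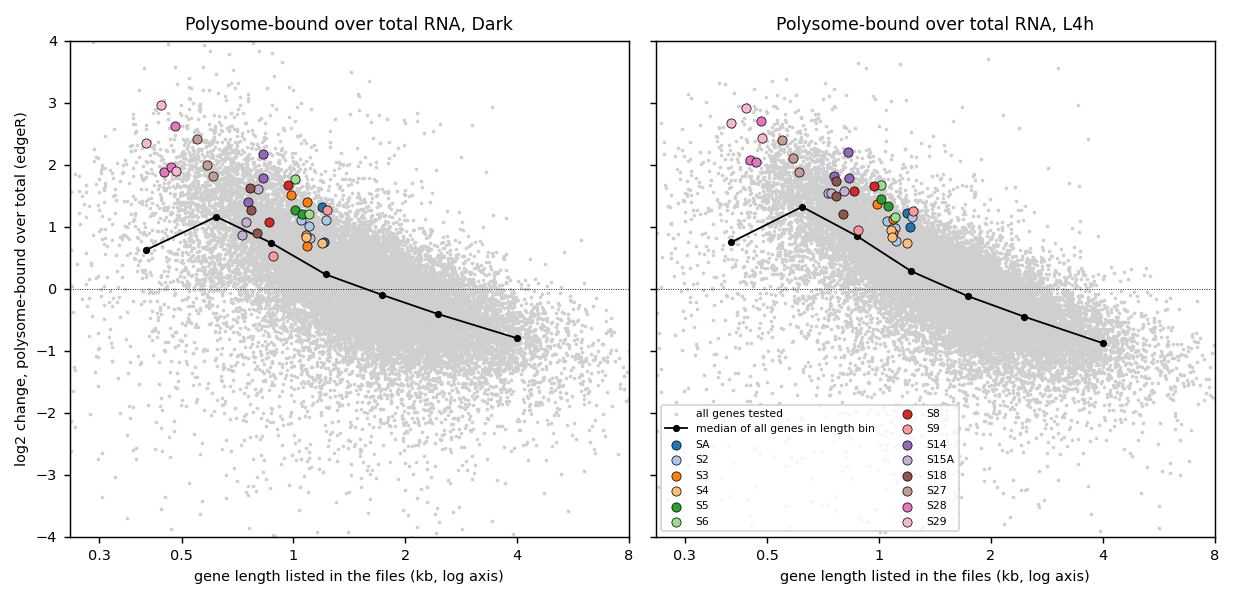
Log2 change between polysome-bound and total RNA against gene length in kilobases on a log axis, in Dark and L4h, with the members coloured by family, all genes tested in grey and the median of each length class in black (points outside the axes are not drawn). Members fall from S29 and S28 at the upper left to S4 and S2 at the right. They lie above the median of their own length class in 35 of 38 cases in Dark and 38 of 38 in L4h.

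Between L4h and Dark, which differ in light and in 4 h of age, 1 of the 38 genes tested was called in total RNA. RPSAb (AT3G04770) rose by 0.87 ± 0.22 (SE, adjusted p = 0.024), with its 3 L4h libraries above its 3 Dark libraries. In L4h against Dark, 1 gene was called higher and 0 lower, where 12.6% and 10.2% of 21735 genes were. The call was lost without Dark replicate 2, Dark replicate 3 or L4h replicate 3 (adjusted p = 0.09, 0.067 and 0.074), while the change stayed between 0.78 and 0.98. The median change of the 38 was 0.19, with 29 above 0, against -0.02 over all genes. All 3 L4h libraries lay above Dark for 7 genes and below for 2, where 21.5% and 22.4% of all genes did. AT3G53870 (S3), whose Dark and L4h libraries did not overlap, changed by 0.65 ± 0.25 (SE, adjusted p = 0.096). Without the libraries numbered 1 it was called at 0.57 (adjusted p = 0.019), and AT1G07770 (S15A) was called lower at -0.45 (adjusted p = 0.036). In that fit 24.0% of all genes were called higher and 24.2% lower, a larger share than the 2 and 1 of the 38. For the most abundant gene, AT5G20290, the change was 0.11 ± 0.26, with a 95% interval of -0.49 to 0.70. For the S6 gene AT4G31700 it was 0.37 ± 0.32, with an interval of -0.36 to 1.10.

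Further darkness gave no call. In D4h against Dark, 0 of 38 genes were called by edgeR, DESeq2 or limma, and 0.0% of all genes were called by edgeR. An unadjusted p under 0.05 from edgeR was found for 1 of the 38 and for 822 of all 21735 genes tested. The median change was 0.37, with 36 genes above 0, and it was 0.02 without D4h replicate 1, the library with high greening markers. All 3 D4h libraries lay above Dark for 3 genes, where 7.48% of all genes did. In that library AT5G20290 had 462 RPKM against 239 and 230 in the others. The gene with an unadjusted p under 0.05 was AT1G59359, 0.88 ± 0.34 (SE, adjusted p = 0.85), whose reads were assigned differently in D4h replicate 2. In L4h against D4h, 0 of 38 were called by edgeR, where 6.92% of all genes were called higher and 7.49% lower. Of these 38, 3 had an unadjusted p under 0.05 from edgeR, as did 6547 of all 21735 genes. DESeq2 called RPSAb at 0.71 (adjusted p = 0.0048), limma called 0 and the median change of the 38 was -0.19. All 3 L4h libraries lay above D4h for 1 gene and below for 2, where 13.1% and 22.8% of all genes did. Without D4h replicate 1 the median was 0.19 and 2 were called higher, RPSAb at 0.88 and AT3G53870 at 0.62 (adjusted p = 0.019 and 0.02), where 15.3% of all genes were called higher.

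On polysomes the calls with light depended on the fit. In L4h against Dark, 0 of 38 genes were called by edgeR, where 5.5% of 20975 genes were higher and 5.01% lower. Of all 20975 genes, 5344 had an unadjusted p under 0.05 from edgeR, and of the 38, 1 did. That gene was RPSAb, at 1.05 ± 0.32 (SE, adjusted p = 0.089), which DESeq2 called at 1.06 (adjusted p = 0.031). limma called 0. The 3 L4h libraries lay above Dark for 1 gene, where 13.8% of all genes did. The median change was 0.25, with 34 of 38 above 0. It was -0.33 without L4h replicate 1 and -0.11 without both libraries numbered 1. Same-numbered libraries deviated together, and with replicate number as a block 5 genes were called higher, as were 21.9% of all genes. They were RPSAb (0.99, adjusted p = 0.031), AT3G46040 of S15A (0.66, adjusted p = 0.017), AT4G33865 of S29 (0.50, adjusted p = 0.02), AT3G43980 of S29 (0.40, adjusted p = 0.04) and AT2G45710 of S27 (0.37, adjusted p = 0.031). Each of these 5 was higher in L4h in 3 of 3 replicate numbers.

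The change in polysome occupancy with light, tested as the interaction term of light and RNA kind, was called for 0 of 38 members and 0.0% of all genes by edgeR. DESeq2 and limma also called 0 members. In edgeR 0 members had an unadjusted p under 0.05, where 115 of all 21924 genes did. The values ranged from -0.27 to 0.66 with a median of 0.06, which was -0.54 without L4h polysome replicate 1.

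**Figure D4:**
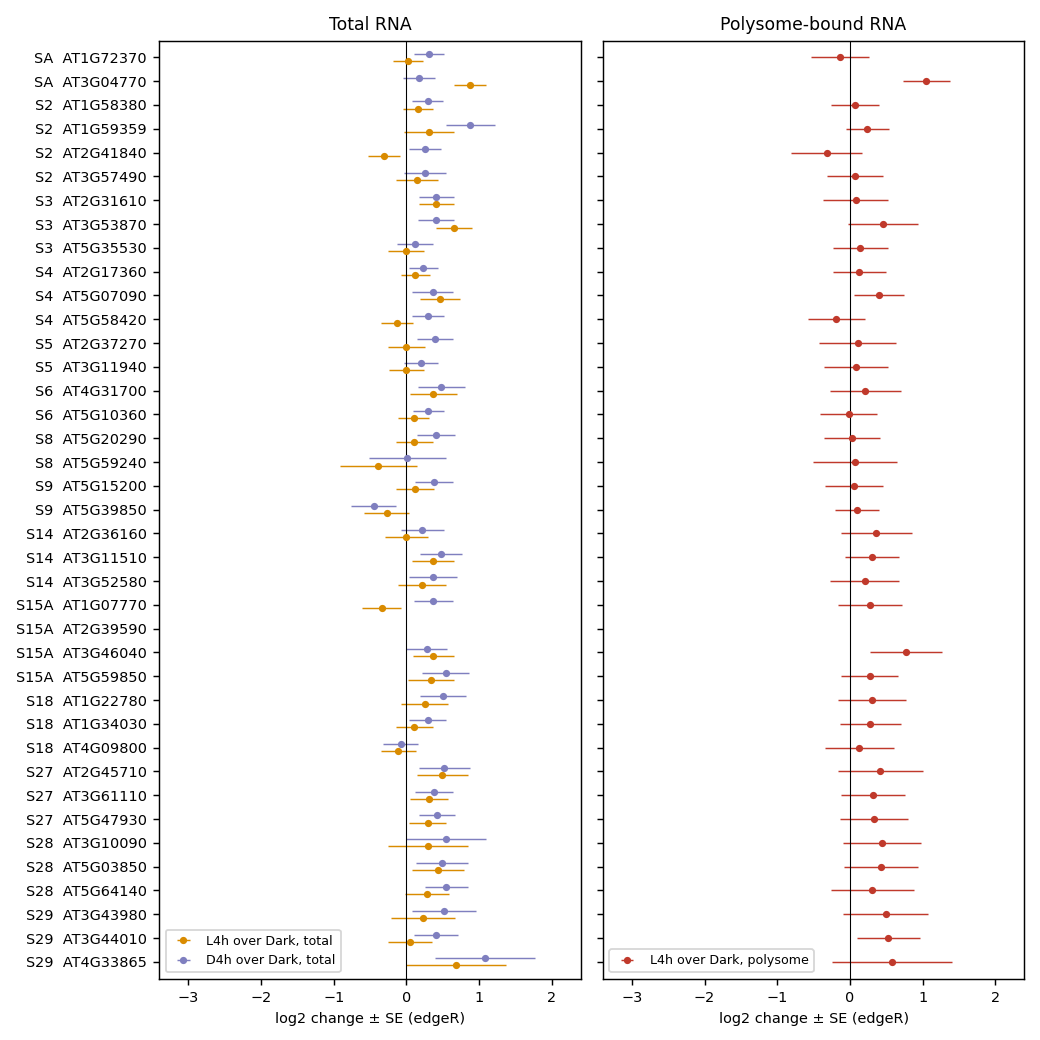
Log2 change ± SE of each gene from edgeR, for L4h and D4h against Dark in total RNA and for L4h against Dark in polysome-bound RNA. AT3G04770 has L4h changes of 0.87 in total and 1.05 in polysome-bound RNA, the largest for L4h in either panel, and AT2G39590 has no value because it was not tested.

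Other ribosomal protein genes were placed beside the 39. In polysome-bound against total RNA, 41 of the 51 other 40S genes tested were called higher in Dark and 45 in L4h, with medians of 1.77 and 1.75, and 74 and 79 of 91 genes of the 60S subunit, with medians of 1.46 and 1.67. Of 10 plastid 30S genes, encoded in the nucleus, 2 and 1 were called, with medians of 1.83 and 1.41. Plastid genes were called higher in L4h than in Dark total RNA in 6 of 10 cases, where 12.6% of all genes were. Their median was 1.78. There 1 of the 50 other 40S genes and 0 of the 91 60S genes tested were called, with medians of 0.24 and 0.21. The one 40S gene was AT4G30800, an S11 gene, at 1.40 ± 0.33 (adjusted p = 0.02). Compared with D4h, of the same age, L4h had 0 of the 10 plastid genes called and a median of 0.53. D4h against Dark gave 0 calls and a median of 1.12, with all 10 values above 0. These plastid results include D4h replicate 1 and are not given without it. The summed plastid level was 2000 RPKM in D4h replicate 1, the library with high greening markers. It was 491 and 474 RPKM in D4h replicates 2 and 3, 384 to 511 RPKM in Dark and 1170 to 1620 RPKM in L4h.

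Among 14 genes of the TOR pathway and of ribosome production, 2 rose and 1 fell in total RNA from Dark to L4h, close to the 12.6% and 10.2% of all genes. S6K1, a kinase of protein S6, rose by 0.83 ± 0.24 (adjusted p = 0.037) and on polysomes by 1.35 ± 0.22 (adjusted p = 0.013). RAPTOR2, which brings substrates to TOR, rose by 1.16 ± 0.21 (adjusted p = 0.0085). TCP20, a transcription factor that binds site II elements, fell by 0.55 ± 0.14 (adjusted p = 0.026). TOR was lower on polysomes, at -1.78 ± 0.30 in both conditions (adjusted p = 0.0041 in Dark and 0.0035 in L4h). RAPTOR1 and RAPTOR2 were lower too, at -0.93 and -1.39 in Dark (adjusted p = 0.028 and 0.018), and LST8-1 was higher in L4h at 0.78 ± 0.16 (adjusted p = 0.0077). Gene length was not adjusted for here, and all genes over 3 kb had median polysome changes of -0.80 in Dark and -0.88 in L4h.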

How the data were processed

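Per the labels, RNA was extracted from seedlings, and 1 table per library was deposited, 15 in all. The authors deposited read numbers as estimated counts (whole in 84.4% to 87.2% of genes, tolerance 1e-06), RPKM and gene length in kilobases. RPKM was computed by the authors, per the file headers, per kilobase of the listed length. The submitters' processing notes name build TAIR10, and the aligner, counting tool and strand are not given in the sources used here. Without strand, overlapping genes cannot be told apart.

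Estimated counts were rounded. edgeR 4.0.16 (R 4.3.3; TMM, filterByExpr minimum count 10, quasi-likelihood F test, Benjamini-Hochberg adjusted p under 0.05 over all genes tested) was fitted to the 9 total libraries, the 6 polysome libraries, and the 12 Dark and L4h libraries for polysome against total and the interaction. Log2 changes are edgeR's, and each SE was taken from the change and its F value, with 95% intervals from the t distribution at the test's degrees of freedom. Fits were tested on simulated data. Tried as alternatives were a replicate block, each library or all those numbered 1 left out, RLE scaling, DESeq2 1.42.0, D4h replicates 2 and 3 summed, limma 3.58.1 on log2(RPKM + 1), a fit of all 15 libraries together, a loess length trend as offset, and no filter. With 3 libraries against 3 no permutation of a single gene can reach 0.05, so none was used.

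Same-numbered libraries were described as paired where their deviations from group means correlated above 0.1 in all 3 numbers, which failed with D4h. The main fits did not use this pairing. The replicate block was an alternative only, and in total RNA it also covered the D4h libraries. Between Dark and L4h the correlations were 0.4 to 0.61 on the total side and 0.6 to 0.72 on the polysome side, and across RNA kinds they were 0.27 to 0.48 within Dark and 0.14 to 0.39 within L4h. The pairing comes from the data, since the labels only number the replicates.

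Values in every library are given for the highest and lowest gene of each family by mean RPKM, genes called with light, and the 3 highest and 3 lowest polysome changes in Dark. The members and lists were chosen with earlier results of these data known. Sequence, coordinates and overlaps come from RefSeq TAIR10.1. Promoter windows were cut from that genome, identity was aligned with Biopython 1.88, and shared stretches are 50-base words of spliced transcripts.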

Additional observations from a re-analysis of the deposited data

How the results depend on the processing

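Counts and medians of the comparisons kept within 1.5 times, or within the spread between replicate numbers, under the alternatives run, with the exceptions given here, and no direction of a called result reversed. With all libraries numbered 1 left out, light in total RNA gave 2 higher and 1 lower against Dark (all genes 24.0% and 24.2%) and 2 higher and 1 lower against D4h (24.3% and 22.7%), the median of light on polysomes was -0.11, and the median polysome change in L4h was 0.94. DESeq2 called 1 higher in L4h against D4h and 1 on polysomes, where all 15 libraries in 1 fit also called 1. Over all genes these fits called 12.2%, 10.2% and 9.04% higher. Replicate number as a block called 5 on polysomes with light and moved no other count of calls by more than 1.5 times. limma on log2(RPKM + 1) gave polysome medians of 1.01 in Dark and 0.97 in L4h, with medians of -0.14 and -0.16 over all genes. That scale understates low genes and was used without TMM. The length trend offset gave 5 and 2 calls with medians of 0.89 and 0.84, where the trend is removed by construction. For the differences other than that of the offset, the cause was not tested.

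With 1 library left out, members called higher ranged from 0 to 1 for L4h against Dark in total RNA and 0 to 2 against D4h. For polysome change they ranged from 11 to 28 in Dark and 11 to 34 in L4h. Over all genes, the shares called higher in the same order were 3.95% to 11.4%, 2.57% to 15.3%, 5.64% to 10.7% and 6.36% to 10.3%. Medians ranged from -0.33 to 0.50 for light on polysomes, from 0.84 to 1.70 for polysome change in L4h and from -0.54 to 0.30 for the interaction. Over members, rho with length was -0.58 for replicate number 3 alone in Dark, and -0.77 and -0.79 for numbers 1 and 3 alone in L4h. Libraries of 60.8 to 100.9 M reads limit little for abundant genes, while AT5G59240 rests on 27 to 178 reads and AT2G39590 on at most 1.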
